A study of Mus musculus with 6 samples.

Results

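The 10 integrin subunit genes that carry fibroblast attachment to collagen, laminin and RGD-containing matrix were examined in mouse NIH/3T3 fibroblasts. They were chosen by name, with earlier results of these data known. They comprise subunits of the collagen-binding (Itga1, Itga2, Itga11), laminin-binding (Itga3, Itga6) and RGD-binding (Itga5, Itgav) receptors and the β subunits that pair with them (Itgb1, Itgb3, Itgb5). They are 10 of 54752 genes in the count table and 10 of its 27 genes named as integrin subunits, which comprise 18 α subunits, 8 β subunits and Itgb2l. NIH/3T3 is an established, continuously growing line derived from mouse embryo fibroblasts, and it was the only cell in the experiment. The vehicle group received PBS. Both other groups received TGF-β1 at 1 ng/ml, joined by DMSO in the TGF-β1 + DMSO group, and by 5 µM of BI6727, an inhibitor of the mitotic kinase PLK1, in the TGF-β1 + BI6727 group. All cells were cultured for 72 h, and each group had 2 RNA-seq libraries. The vehicle libraries had neither TGF-β1 nor DMSO, so the contributions of TGF-β1 and of DMSO to a difference from vehicle cannot be told apart.

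Integrins are transmembrane receptors made of an α and a β subunit, and the pair decides which matrix protein is bound. The β subunit Itgb1 joins most α subunits, including all those that bind collagen and laminin, whereas Itgav also pairs with Itgb3 and Itgb5 to bind vitronectin and other proteins with the RGD sequence. In fibroblasts these receptors link the matrix to the actin cytoskeleton, transmit contractile force, and release TGF-β from its latent complex, and fibroblasts that become myofibroblasts are known for enlarged focal adhesions.

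The members lie on separate chromosomes except for 3 pairs. Itga2 (chr13:114833081-114932100) and Itga1 (chr13:114953096-115101964) are neighbours on the minus strand of chromosome 13, 20.995 kb apart, with 1 gene, Gm47776, between them. Itga3 (chr11:95044474-95076801) and Itgb3 (chr11:104608000-104670476) share chromosome 11 with 486 genes between them, and Itga6 (chr2:71745616-71858416) and Itgav (chr2:83724397-83806916) share chromosome 2 with 187 between them. The remaining members are Itga5 (chr15:103344286-103366763), Itga11 (chr9:62677826-62783982), Itgb1 (chr8:128685654-128733200) and Itgb5 (chr16:33829665-33949338), all positions on mm10. Of the exonic bases of Itgav, 5.90% overlap Gm13684 on the opposite strand, and of those of Itga1, 3.68% overlap Gm49395. Windows of 50 bases, the read length, also occurred in other genes for 5.31% of Itga6 and 7.26% of Itgb5, so the counts of these genes may be slightly shared. Sequence windows of Itga2, Itga3, Itga5 and Itgb1 occurred in no other gene.

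Promoter sequence is shown for the 4 α subunits among the 10 members with the largest log2 fold changes that were called against vehicle, as read from RefSeq (GRCm38.p6) in the 250 bases before the annotated start and without bases inside deposited exons. Capitals mark the SMAD-binding half-site (CAGACA or its complement TGTCTG) and the SP1 box (GGGCGG or CCGCCC). Each line is 5′ to 3′ on the gene's own strand.
Itga2, chr13:114932101-114932350, minus strand: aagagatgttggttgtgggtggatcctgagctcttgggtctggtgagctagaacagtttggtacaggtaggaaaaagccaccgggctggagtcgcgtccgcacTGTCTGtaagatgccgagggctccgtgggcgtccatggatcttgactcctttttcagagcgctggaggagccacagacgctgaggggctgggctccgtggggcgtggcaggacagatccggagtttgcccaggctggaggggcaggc
Itga11, chr9:62677605-62677825, plus strand: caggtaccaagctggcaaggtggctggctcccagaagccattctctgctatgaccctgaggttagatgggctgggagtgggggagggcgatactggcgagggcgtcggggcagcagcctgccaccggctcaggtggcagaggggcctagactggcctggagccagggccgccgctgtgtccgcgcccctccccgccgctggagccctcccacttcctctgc
Itga3, chr11:95076802-95076964, minus strand: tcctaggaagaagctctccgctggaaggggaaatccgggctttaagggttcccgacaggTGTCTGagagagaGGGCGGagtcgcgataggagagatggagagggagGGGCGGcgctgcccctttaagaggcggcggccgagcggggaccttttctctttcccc
Itga5, chr15:103366792-103367041, minus strand: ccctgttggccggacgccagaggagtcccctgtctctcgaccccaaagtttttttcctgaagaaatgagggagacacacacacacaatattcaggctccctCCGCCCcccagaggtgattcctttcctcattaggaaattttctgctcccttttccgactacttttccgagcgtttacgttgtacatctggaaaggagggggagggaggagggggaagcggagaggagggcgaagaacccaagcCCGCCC

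Promoters were listed for 8 of the 10 members, all but Itga6 and Itgb3. The SMAD letters CAGACA occurred before 3 of the 8, 147 bases before the start of Itga2, 191 before Itga3 and 82 before Itgb1, and in 17.1% of all 32817 promoters of the same length. The SP1 letters GGGCGG occurred in 4 of 8 (Itga3, Itga5, Itgb1 and Itgb5) and in 32.7% of all promoters. The TEAD letters GGAATG occurred in 1 of 8, at Itgb1, against 12.6%, and the GC-rich SMAD letters GGCGCC in 1 of 8, again Itgb1, against 9.59%. Neither the AP-1 letters TGANTCA, found in 6.75% of all promoters, nor a CArG box, found in 1.47%, occurred in these 8. All motifs were searched on both strands, none of them overlapped another in the members, and a match is a match of letters only.

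Depth was similar across the libraries, from 18362378 to 24452153 counts in genes. Levels are given as normalized CPM, which is CPM (reads scaled to a common library total) after TMM scaling over the genes tested. Levels of different genes were compared only as RPKM, which divides by exonic length. All 8 fibroblast markers examined were present, with sums between 7792 and 10156 normalized CPM over all libraries. Vim alone was at 4014 to 5126, so the sums hide changes of single markers. Pdgfra was at 283 and 265 in vehicle and 96.3 and 54.2 with TGF-β1 + DMSO, and edgeR called it lower (log2 -1.87, adjusted p = 0.00195). Thy1 fell short of 2-fold there (-0.91, adjusted p = 0.00115). With TGF-β1 + BI6727 against vehicle, Pdgfra, Pdgfrb and Thy1 were called lower. Vim, Col1a1, Col1a2, Fn1 and S100a4 were not called against vehicle. The 6 epithelial markers summed to 0.363 to 0.501 in vehicle, 1.93 to 2.08 with TGF-β1 + DMSO and 0.538 to 1.39 with TGF-β1 + BI6727, with Krt5 and Krt18 at 0 throughout. Most of the sum with TGF-β1 + DMSO was Krt14, which filterByExpr called higher there than in vehicle (log2 3.36, adjusted p = 0.00457). The 4 endothelial markers summed to 0.312 to 0.910 in vehicle, 2.89 to 3.77 with TGF-β1 + DMSO and 2.00 to 2.65 with TGF-β1 + BI6727, with Kdr at 0. Both sums were higher with TGF-β1 + DMSO than in vehicle, as Itga2, Itga3, Itga5 and Itgb3 were, and their part in these results was not tested. The 4 haematopoietic markers summed to 2.94 to 4.69, with Adgre1 and Cd3e at 0. Of 4 platelet markers 3 stayed under 1 in every library. The remaining marker, the integrin α subunit Itga2b, was at 9.55 and 9.10 in vehicle and between 4.15 and 7.41 in the libraries with TGF-β1. Its log2 fold change with TGF-β1 + DMSO of -0.68 under filterByExpr (adjusted p = 0.106) did not pass. The 2 TGF-β1 + DMSO libraries differed from each other more than those of the other groups did, with an SD of the log2 difference over genes of 0.377 against 0.163 for vehicle and 0.147 for TGF-β1 + BI6727. Replicate 1 of that group exceeded replicate 2 in 8 of the 8 members tested, by a median of 0.32 on the log2 scale.

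Unstimulated NIH/3T3 cells expressed mainly Itgb1, Itga5 and Itgb5. In vehicle, Itgb1 averaged 136 RPKM and was followed by Itga5, which forms the fibronectin receptor with it, at 36.4 and 39.5 RPKM. Next came Itgb5 at 31.9 RPKM and Itgav at 12.6 RPKM. The laminin receptor subunits followed, with Itga6 at 8.33 RPKM and Itga3 at 1.54 RPKM. Below them came Itga11 at 1.06 RPKM and Itgb3 at 0.903 RPKM, whose ranges over the libraries overlapped, and then Itga2 at 0.148 RPKM and Itga1 at 0.0944 RPKM. With TGF-β1 + DMSO the order began in the same way, with Itgb1 at 226 RPKM, Itga5 at 112 RPKM, Itgb5 at 47.4 RPKM and Itgav at 20.0 RPKM, but Itgb3 came next at 8.99 RPKM. Itga6 followed at 5.89 RPKM, then Itga3 at 4.44 RPKM and Itga2 at 3.87 RPKM with overlapping ranges, while Itga11, at 0.148 RPKM, and Itga1, at 0.0394 RPKM, were the least abundant. TGF-β1 + BI6727 gave Itgb1 239 RPKM, Itga5 109 RPKM, Itgb5 49.2 RPKM, Itgav 18.6 RPKM and Itgb3 6.25 RPKM, followed by Itga3 at 5.16 RPKM and Itga6 at 5.13 RPKM, which overlapped, and Itga2 at 4.02 RPKM. Itga1 at 0.0508 RPKM and Itga11 at 0.0505 RPKM could not be ordered there.

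**Figure D1:**
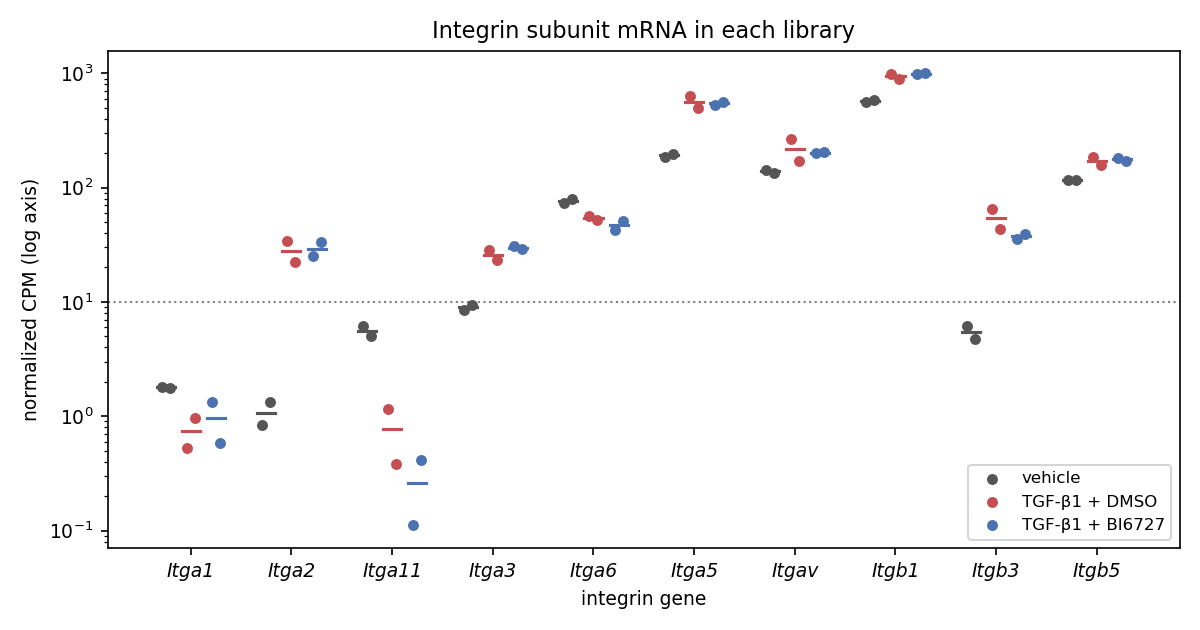
Normalized CPM (log axis) of the 10 integrin genes in each library; points are the 2 libraries of a group, short lines their mean, and the dotted line the 10 CPM used as the filter on low counts. Itga2 rose from 0.831 and 1.32 to between 22.2 and 33.9 with TGF-β1, Itgb3 rose from 4.73 and 6.18 to between 35.5 and 64.7, and Itga11 lay at 1.16 or below in all 4 libraries with TGF-β1.

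TGF-β1 + DMSO raised the transcripts of 4 members, Itga2, Itgb3, Itga5 and Itga3, relative to vehicle. A gene was called when the edgeR quasi-likelihood test gave an adjusted p below 0.01 and a fold change above 2. By this rule 4 of the 8 members tested were called higher, against 2.56% of all 9518 genes tested, and 0 were called lower, against 2.53%. DESeq2 also called 0 members lower. At an unadjusted p under 0.05, 7 of the 8 were higher and 1, Itga6, was lower, where 18.4% of all tested genes were higher and 19.3% lower. The groups did not overlap for any of the 8 members, with 7 higher and 1 lower, where 29.8% and 33.1% of all tested genes were apart in these directions. Itga2, Itga3 and Itgb3 reached 10 CPM only in the libraries with TGF-β1, so their passing the filter was tied to their being high there. Itga1 and Itga11 did not pass and were fitted with the less strict filterByExpr rule on 14604 genes. The p-values measure the spread between these libraries, and the labels do not say whether replicates were separate cultures. In bulk RNA, more cells with a transcript and more transcript per cell cannot be told apart.

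Among the collagen receptors, Itga2 was higher and Itga11 lower with TGF-β1 + DMSO. Itga2, whose dimer with Itgb1 binds fibrillar collagen and laminin, was nearly undetected in vehicle, with 16 and 29 counts, and had 702 and 462 counts with TGF-β1 + DMSO. In normalized CPM these were 0.831 and 1.32 against 33.9 and 22.2. Every treated library stood far above both vehicle libraries, with a log2 fold change of 4.68 (SE 0.33, adjusted p = 0.000166), or 25.7-fold, and the call remained when any 1 library was left out (log2 4.34 to 5.07). Itga11, a collagen receptor subunit typical of mesenchymal cells, moved the other way. It had 119 and 110 counts in vehicle and 24 and 8 with TGF-β1 + DMSO, or 6.18 and 5.01 against 1.16 and 0.385 normalized CPM. Under filterByExpr, where 2.75% of genes were called higher and 3.23% lower, its log2 fold change was -2.84 (SE 0.52, adjusted p = 0.00617). Its passing that filter was tied to its being high in the vehicle libraries. The lower call of Itga11 did not remain without vehicle replicate 1 (-2.69) or vehicle replicate 2 (-2.98), each with 1 vehicle library left. Itga1, the subunit of the collagen IV receptor and the chromosomal neighbour of Itga2, had 35 and 39 counts in vehicle and 11 and 20 with TGF-β1 + DMSO, and its log2 fold change of -1.25 (SE 0.52, adjusted p = 0.123) did not pass.

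Of the laminin-binding members, Itga3 was called higher and Itga6 did not pass. Itga3, which binds laminins with Itgb1, was at 8.57 and 9.37 normalized CPM in vehicle and at 28.2 and 23.4 with TGF-β1 + DMSO. Both treated libraries were above both vehicle libraries, with a log2 fold change of 1.52 (SE 0.16, adjusted p = 0.000771), or 2.87-fold. Itga6, the other laminin-binding member, was at 74.0 and 79.9 normalized CPM in vehicle and 56.4 and 51.7 with TGF-β1 + DMSO. Among the 8 members that passed the 10 CPM filter it alone had a negative value, a log2 fold change of -0.51 (SE 0.12, adjusted p = 0.0261), which did not reach the threshold. With the trend of levels with gene length in each library removed, the value of Itga6 was -0.35 (adjusted p = 0.0326). The call of Itga3 was lost without vehicle replicate 1 (1.45) or vehicle replicate 2 (1.59), each with 1 vehicle library left. Over all fits with 1 library left out, the log2 fold change of Itga3 ran from 1.37 to 1.66.

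Of the RGD-binding α subunits, Itga5 rose and Itgav was less certain. Itga5 was at 185 and 198 normalized CPM in vehicle and 636 and 492 with TGF-β1 + DMSO, with no overlap. Its log2 fold change was 1.56 (SE 0.14, adjusted p = 0.000441), or 2.94-fold. The call was lost without vehicle replicate 1 (adjusted p = 0.0199) or vehicle replicate 2 (adjusted p = 0.0142). Itgav, the partner of Itgb3 and Itgb5, was at 142 and 135 in vehicle and at 265 and 173 with TGF-β1 + DMSO. Its treated libraries differed by more, as a ratio, than those of any other member above 100 CPM, and its log2 fold change of 0.66 (SE 0.19, adjusted p = 0.0410) did not pass. The value was 0.31 without TGF-β1 + DMSO replicate 1 and 0.95 without replicate 2. Over genes of the length of Itgav, replicate 1 of that group exceeded replicate 2 by 0.37 on the log2 scale, and with this length trend removed the log2 fold change was 0.83 (adjusted p = 0.000153), still short of 2-fold. Whether the trend contributes to the difference between the replicates was not tested.

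Of the β subunits, Itgb3 was called higher, and Itgb1 and Itgb5 did not pass the rule. Itgb3, which with Itgav forms the vitronectin receptor, had 119 and 104 counts in vehicle and 1340 and 900 with TGF-β1 + DMSO, equal to 6.18 and 4.73 against 64.7 and 43.3 normalized CPM. The groups were well separated, with a log2 fold change of 3.31 (SE 0.24, adjusted p = 0.000177), or 9.92-fold, and the call remained in each fit with 1 library left out (log2 2.99 to 3.59). Itgb1, the common partner, was at 557 and 580 in vehicle and 987 and 891 with TGF-β1 + DMSO, a log2 fold change of 0.72 (SE 0.11, adjusted p = 0.00384), or 1.65-fold. It met the p threshold, as did 4.92% of all genes upward and 4.91% downward, but not the fold threshold. Itgb5, another partner of Itgav, was at 116.3 and 115.7 in vehicle and 184 and 158 with TGF-β1 + DMSO, a log2 fold change of 0.56 (SE 0.11, adjusted p = 0.0101). Itgb1 lost its adjusted p below 0.01 without either vehicle library and without either BI6727 library. The BI6727 libraries enter this comparison through the shared estimate of spread. Over all fits with 1 library left out, the log2 fold change of Itgb1 ran from 0.64 to 0.81.

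**Figure D2:**
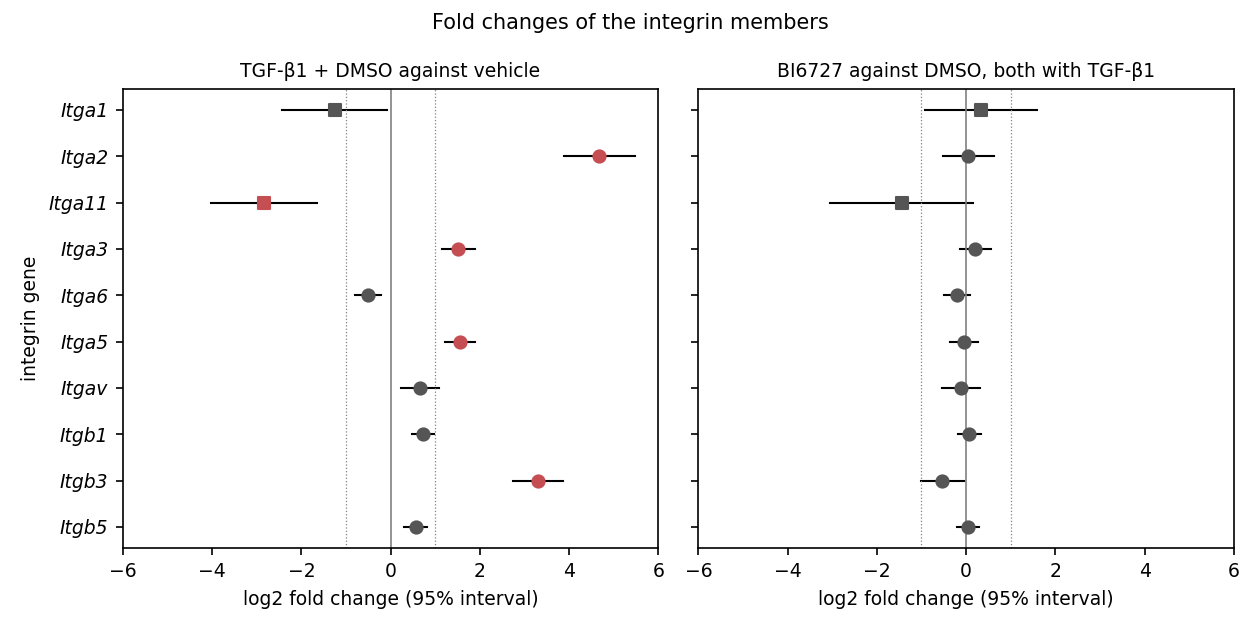
Log2 fold changes with 95% intervals of the 10 integrin genes, on the left for TGF-β1 + DMSO against vehicle and on the right for BI6727 against DMSO, both with TGF-β1. Red marks called genes, squares mark the 2 genes fitted with filterByExpr, and dotted lines mark a 2-fold change; on the left the values run from -2.84 (Itga11) to 4.68 (Itga2), and on the right no gene is called.

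Expressed as shares of the summed RPKM, which do not depend on library scaling, the collagen-binding set turned over. Itga11 accounted for 65.5% and 62.8% of the summed level of Itga1, Itga2, Itga10 and Itga11 in the vehicle libraries, and for 4.28% and 2.11% with TGF-β1 + DMSO. Itga2 accounted for 6.33% and 11.9% in vehicle and for 90.1% and 87.8% with TGF-β1 + DMSO. The sum itself was 1.78 and 1.53 RPKM in vehicle and 5.19 and 3.49 RPKM with TGF-β1 + DMSO, so both the makeup and the total differed. Of the exonic bases of Itga10, 33.5% overlap Gm42957 on the same strand, so its share is uncertain.

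The laminin-binding set changed makeup at a nearly constant total. Its summed level was 9.72 and 10.5 RPKM in vehicle, 11.9 and 10.5 with TGF-β1 + DMSO, and 10.8 and 11.5 with TGF-β1 + BI6727. Itga3 made up 15.0% and 15.4% of it in vehicle, 41.0% and 38.1% with TGF-β1 + DMSO and 49.3% and 43.5% with TGF-β1 + BI6727. Itga6 made up 82.4% on average in vehicle and 52.6% and 46.0% in the treated groups, with Itga7 as the remainder.

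Across all 18 α subunits the fibronectin receptor subunit gained share. Itga5 contributed 56.5% and 58.7% of the summed α level in vehicle, 74.5% and 75.3% with TGF-β1 + DMSO, and 75.1% and 75.3% with TGF-β1 + BI6727. Itgav contributed 19.2%, 13.2% and 12.8% on average in the same order, and there were 2.84 and 3.19 RPKM of Itga5 per RPKM of Itgav in vehicle against 5.22 and 6.21 with TGF-β1 + DMSO. The α sum was 64.3 and 67.3 RPKM in vehicle and 170 and 130 RPKM with TGF-β1 + DMSO. Among the 8 β subunits the leading genes kept close shares, Itgb1 with 73.8%, 76.1% and 75.6% and Itgb5 with 17.3%, 15.9% and 15.6% in the 3 groups, while Itgb3 went from 0.491% to 3.00% and 1.98%. These shares were not tested, since 2 libraries per group cannot reach p below 0.05 by exact permutation.

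**Figure D3:**
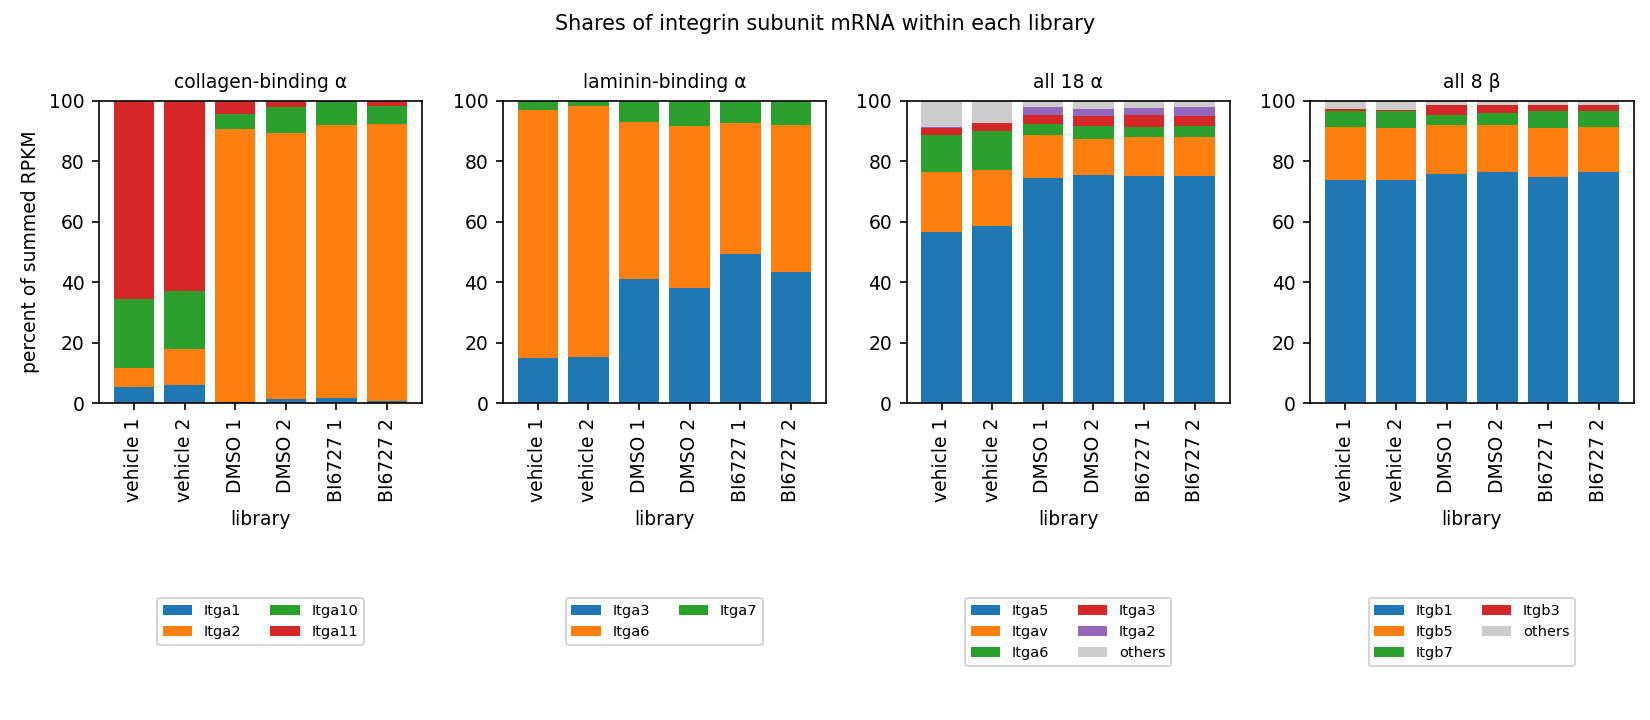
Percent of the summed RPKM contributed by each subunit in each library, within the 4 collagen-binding α subunits, the 3 laminin-binding α subunits, all 18 α and all 8 β subunits. Itga11 fills most of the first panel in vehicle and Itga2 in the libraries with TGF-β1 (87.8% to 91.8%); the β panel differs little between libraries.

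With BI6727 added to TGF-β1, no member transcript passed the rule for a call against TGF-β1 + DMSO. The intervals of Itgb3, Itga1 and Itga11 reached past 2-fold, so this design did not resolve their changes. None of the 8 members was called in the edgeR comparison of TGF-β1 + BI6727 with TGF-β1 + DMSO, nor by DESeq2, and 1 of the 8 (Itgb3) had an unadjusted p under 0.05. Over all genes 0% were called higher and 0% lower, with 2.16% higher and 4.52% lower at an unadjusted p under 0.05. The groups did not overlap for 3 members, Itga3 upward and Itga6 and Itgb3 downward, where 17% and 17.1% of all genes did so.

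Itgb3 had the largest of these differences. It was at 64.7 and 43.3 normalized CPM with DMSO and at 35.5 and 39.2 with BI6727, so both inhibitor libraries were lower, by 0.53 on average on the log2 scale (log2 fold change -0.53, 95% interval -1.02 to -0.04, adjusted p = 0.722). The size depended on which DMSO library was used. Without replicate 1 of TGF-β1 + DMSO the log2 fold change was -0.21, and without replicate 2 it was -0.80, still under 2-fold. A group with 1 library left adds nothing to the estimate of spread, so fits with a library left out are given without p-values. Calls lost in such fits carry the same limit.

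The other tested members gave 95% intervals that stayed within 2-fold in either direction, in a fit whose spread is shared by the 3 groups. The TGF-β1 + DMSO libraries differed more (SD 0.377) than those of vehicle (0.163) and TGF-β1 + BI6727 (0.147). The intervals may therefore be too narrow for this comparison, and they do not exclude a larger change. Itga2 was at 33.9 and 22.2 normalized CPM with DMSO and 25.0 and 33.1 with BI6727, a log2 fold change of 0.05 (95% interval -0.52 to 0.63). Itga5, at 526 and 564 with BI6727, had a value of -0.05 (-0.37 to 0.27). Itgb1, at 976 and 999, had 0.07 (-0.18 to 0.32), and Itgb5, at 183 and 171, had 0.05 (-0.20 to 0.30). All 4 overlapped their DMSO libraries. Itga3 was at 30.8 and 28.9 with BI6727, above both DMSO libraries (0.21, interval -0.14 to 0.55), and Itga6 at 42.8 and 50.9, below both (-0.20, interval -0.50 to 0.09). Itgav, at 199 and 206, lay between its 2 DMSO libraries (-0.11, interval -0.55 to 0.32), and its sign depended on them, with 0.23 without TGF-β1 + DMSO replicate 1 and -0.40 without replicate 2.

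Itga11 was near the limit of counting in both treated groups. It had 2 and 10 counts with BI6727, or 0.111 and 0.414 normalized CPM, against 24 and 8 counts with DMSO. The log2 fold change of -1.44 under filterByExpr had an interval from -3.04 to 0.17 (adjusted p = 0.710), and it was -0.43 without TGF-β1 + DMSO replicate 1. Itga1 had 24 and 14 counts with BI6727, and its value of 0.33 (interval -0.92 to 1.58, adjusted p = 0.921) carried little information.

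Against vehicle, the TGF-β1 + BI6727 libraries gave the same 4 genes as called higher, in 4 of 8 members tested, where 2.34% of all genes were called higher and 2.96% lower. This comparison shares its vehicle libraries with the one above, so its values are given beside those and do not count as further evidence. Here too, Itga2, Itga3 and Itgb3 passed the 10 CPM filter only through the libraries with TGF-β1, so the count of 4 is tied to that filter. Itga2 was 26.6-fold higher (log2 4.74, SE 0.33, adjusted p = 0.000157), Itgb3 6.87-fold (log2 2.78, SE 0.24, adjusted p = 0.000337), Itga3 3.32-fold (log2 1.73, SE 0.16, adjusted p = 0.000409) and Itga5 2.85-fold (log2 1.51, SE 0.14, adjusted p = 0.000451). All 8 members were apart from vehicle, 7 higher and 1 lower, in directions that 38.4% and 38.3% of all genes shared. Without vehicle replicate 2 only Itga2 remained called, and without vehicle replicate 1 Itga2 and Itgb3 did, each with 1 vehicle library left. The log2 values without vehicle replicate 2 were 2.59 for Itgb3, 1.80 for Itga3 and 1.56 for Itga5.

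Smaller differences from vehicle met the p threshold without reaching 2-fold. Itgb1 had a log2 fold change of 0.80 (adjusted p = 0.00241), Itgb5 of 0.61 (adjusted p = 0.00682) and Itga6 of -0.71 (adjusted p = 0.00704), where 4.94% of all genes passed this p upward and 5.99% downward. None of these 3 kept an adjusted p below 0.01 when a vehicle or BI6727 library was left out, which left 1 library in that group. Itgav at 0.55 (adjusted p = 0.0714) did not pass. Itga11, at -4.27 under filterByExpr (SE 0.60, adjusted p = 0.00159), was called lower, where 3.71% of all genes were, against 2.51% higher. Its call was lost without either vehicle library or either BI6727 library, at log2 values between -5.55 and -3.72. Here too its passing filterByExpr was tied to its being high in vehicle.

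Most other integrin subunits were at low levels. The list of other subunits held 17 genes, with the related Itgbl1 and without Itgb2l. Of these 17, 3 passed the 10 CPM filter and 11 passed filterByExpr. Of the 3, none was called in any comparison by edgeR with all libraries, where 2.56% of all genes were called higher and 2.53% lower with TGF-β1 + DMSO. Itgb7, a β subunit best known from lymphocytes, was at 27.3 and 30.4 normalized CPM in vehicle, 28.9 and 31.8 with TGF-β1 + DMSO and 50.9 and 45.8 with TGF-β1 + BI6727. Both BI6727 libraries were above the other 4, with a log2 fold change of 0.67 against DMSO (SE 0.13, adjusted p = 0.468) and 0.74 against vehicle (SE 0.13, adjusted p = 0.00642), short of 2-fold. Of the 4 haematopoietic markers, Cd68 was at 3.43 and 4.50 normalized CPM in vehicle, 2.51 and 2.84 with TGF-β1 + DMSO and 3.06 and 3.19 with TGF-β1 + BI6727, so it was also higher in the BI6727 libraries than in the DMSO libraries (0.23 under filterByExpr, adjusted p = 0.889). Ptprc was at most 0.435 and was at 0 in both BI6727 libraries, and Adgre1 and Cd3e were at 0 throughout. The part of such cells in the Itgb7 level was not tested. Itgbl1, a secreted protein resembling the β stalk, was at 37.4 and 34.9 in vehicle and 20.2 and 16.3 with TGF-β1 + DMSO (log2 fold change -0.98, adjusted p = 0.00580), just short of 2-fold. Without TGF-β1 + DMSO replicate 1, which left 1 library in that group, the value of Itgbl1 was -1.15.

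Itgb4, the partner of Itga6 in hemidesmosomes, was between 12.9 and 19.0 normalized CPM throughout (0.22, adjusted p = 0.418). Itgb2, the leukocyte β subunit, was at 8.36 and 9.60 in vehicle and 4.25 and 4.86 with TGF-β1 + DMSO, and its log2 fold change of -0.97 under filterByExpr (adjusted p = 0.0169) did not pass. Without TGF-β1 + DMSO replicate 2, which left 1 library in that group, the value of Itgb2 was -1.05. Itga7 and Itga8 were picked out after their values were seen, because filterByExpr called them. Itga7, a laminin receptor subunit of muscle, was at 2.60 and 1.37 in vehicle and 6.95 and 7.37 with TGF-β1 + DMSO (log2 1.87, adjusted p = 0.00338). The call of Itga7 was lost without vehicle replicate 2 and without either BI6727 library. Itga8, an RGD receptor subunit, was at 8.31 and 8.37 in vehicle, 3.86 and 1.88 with DMSO and 2.50 and 1.82 with BI6727. It was called lower with BI6727 against vehicle (-1.94, adjusted p = 0.00544), and this call was lost without any 1 of the vehicle or BI6727 libraries. Against vehicle with DMSO its value was -1.53 (adjusted p = 0.0147). It was -2.15 without TGF-β1 + DMSO replicate 1 and -1.08 without replicate 2, each with 1 library left in that group. Itga4 and Itgad had 0 counts in all 6 libraries.

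Of the adaptors that tie integrins to actin, Tns3 and Pdlim7 were called higher with TGF-β1 + DMSO. Of 40 focal adhesion genes, 35 were tested against vehicle with TGF-β1 + DMSO, and 2 were called higher and 0 lower, where 2.56% and 2.53% of all genes were. The groups did not overlap for 17 higher and 8 lower of the 35, where 29.8% and 33.1% of all genes were apart. The list had a median log2 fold change of 0.23 where the median over all genes was near 0 (-0.0045). Tns3, a tensin that binds the β subunit tail, went from 85.5 and 93.9 to 235 and 180 normalized CPM (log2 1.21, SE 0.14, adjusted p = 0.00129). Pdlim7, a PDZ and LIM domain protein of actin fibres, went from 42.1 and 36.4 to 104 and 103 (log2 1.40, SE 0.11, adjusted p = 0.000225). Talin Tln1, which activates integrins at the β tail and is named here as an example chosen after its value was seen, was at 150 and 175 in vehicle and 226 and 116 with TGF-β1 + DMSO (0.08, adjusted p = 0.857). With TGF-β1 + BI6727 against vehicle, Tns3 (1.29), Pdlim7 (1.22) and, downward, Kank1 (-1.07), a talin-binding protein at the rim of adhesions, were called, and the call of Kank1 was lost with the replicate number as a block (adjusted p = 0.0122).

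The matrix proteins that integrins bind moved in both directions. Of 38 ligand genes, 30 were tested, and 5 were called higher and 5 lower with TGF-β1 + DMSO, where 2.56% and 2.53% of all genes were, with a median log2 fold change of 0.35. This list, like the others, was written with results of these data known, so these counts only describe it. Higher were Ccn2, a matricellular ligand of Itgav and Itga6 receptors (log2 3.65), Postn, a ligand of Itgav receptors (2.72), Thbs1, an activator of latent TGF-β (1.99), Edil3, an RGD protein (1.26), and Tgfb1, whose latent peptide carries RGD (1.24). Lower were the laminin chain Lama4 (-1.87), the laminin-binding linker Nid1 (-1.87), the RGD-containing elastic fibre protein Fbln5 (-1.68), Spp1 or osteopontin (-1.42) and the collagen VI chain Col6a1 (-1.37). Ccn2 was at 30.9 and 33.2 normalized CPM in vehicle, 385 and 419 with DMSO and 255 and 239 with BI6727, and 23.2% of its exonic bases overlap Gm15270 on the opposite strand. Spp1 fell from 1520 and 1460 to 525 and 586, with 18.8% of its exonic bases shared with Gm42793. Fn1, the ligand of the Itga5 receptor, was named for that role after its value was seen, and its 2676 and 1104 normalized CPM with TGF-β1 + DMSO enclosed the vehicle values of 1441 and 1323 (0.45, adjusted p = 0.374).

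Relative to vehicle, TGF-β1 + BI6727 gave 3 ligand genes called higher and 6 lower, of 30 tested, where 2.34% and 2.96% of all genes were. Ccn2 (2.95), Thbs1 (1.43) and the laminin chain Lamb1 (1.00) were higher, and Fbln5 (-2.44), Lama4 (-2.04), Col6a1 (-1.90), Col6a2 (-1.90), Nid1 (-1.65) and Spp1 (-1.56) lower. Against DMSO none of the 30 was called by edgeR, with a median of -0.16. Postn, at 71.6 and 26.8 with DMSO and 14.0 and 11.3 with BI6727, had a log2 fold change of -1.96 (SE 0.44, adjusted p = 0.569), which DESeq2 called (adjusted p = 0.000152).

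Partners of integrins in the membrane and in endocytic traffic had a median of -0.05 with TGF-β1 + DMSO over the 24 of 30 tested, with 1 called higher and 2 lower, where 2.56% and 2.53% of all genes were. Plaur, the urokinase receptor that associates with integrins at the membrane, was called higher, going from 79.5 and 81.6 to 272 and 347 normalized CPM (log2 1.94, SE 0.13, adjusted p = 0.000134). Vcam1, a counter-receptor of leukocyte integrins, was called lower, going from 58.5 and 54.9 to 11.1 and 12.4 (-2.27, SE 0.14, adjusted p = 9.78e-05). Cav1, the caveolin of membrane invaginations, fell from 269 and 271 to 106 and 109 (-1.33, SE 0.10, adjusted p = 0.000166) and was at 57.0 and 63.0 with BI6727 (-0.84 against DMSO, SE 0.10, adjusted p = 0.183). The same 3 genes were called with TGF-β1 + BI6727 against vehicle, together with Sdc4, a co-receptor for fibronectin (-1.08).

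Over the 4 lists, 15 genes were called with TGF-β1 + DMSO against vehicle and 16 with TGF-β1 + BI6727. Of the 15, only Ccn2, Pdlim7, Plaur, Vcam1 and Cav1 remained called in all 6 fits with 1 library left out, and of the 16, only Ccn2, Plaur, Fbln5, Spp1, Vcam1 and Cav1. In the first comparison the higher calls numbered 3 without vehicle replicate 1, 3 without vehicle replicate 2 and 14 without TGF-β1 + DMSO replicate 2, and the lower calls 2 without either vehicle library, 4 without either BI6727 library and 19 without TGF-β1 + DMSO replicate 1. In the second the lower calls numbered 4 without any 1 of the vehicle or BI6727 libraries, and the higher calls 2 without vehicle replicate 2 and 3 without vehicle replicate 1 or either BI6727 library.

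**Figure D4:**
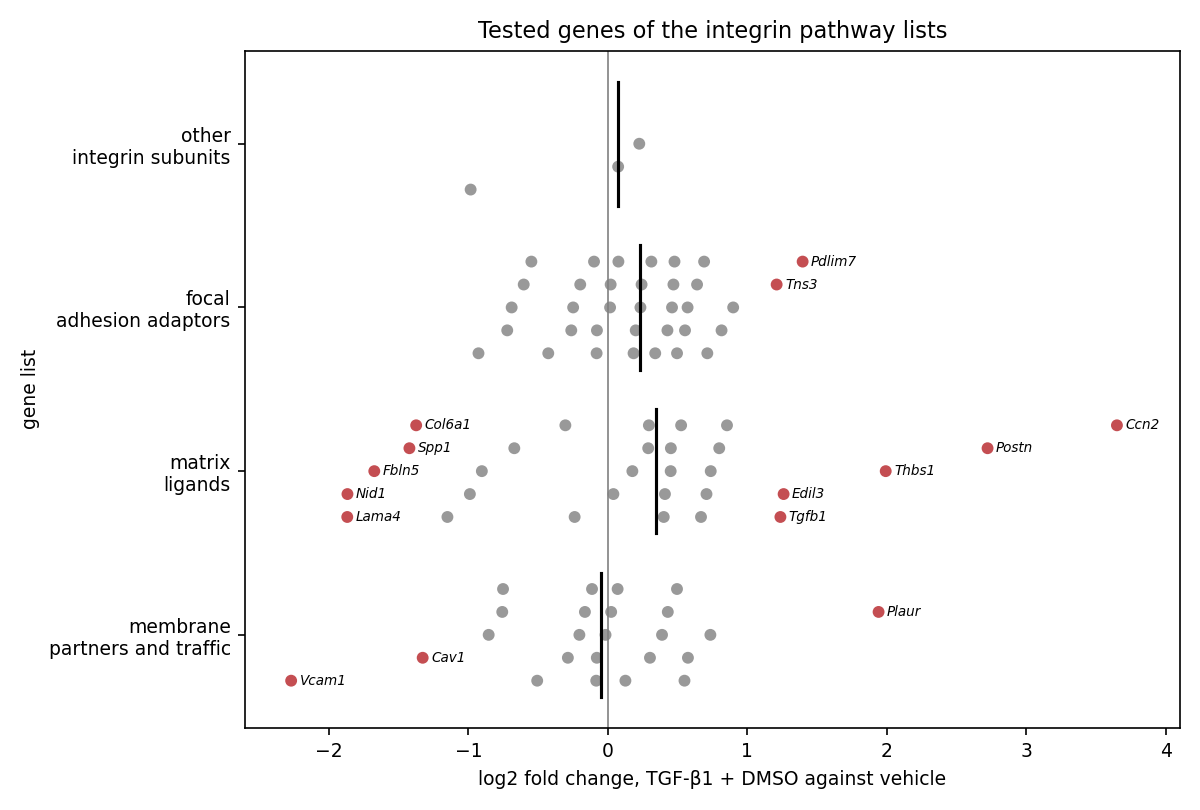
Log2 fold change of each tested gene of the 4 pathway lists with TGF-β1 + DMSO against vehicle; red points are called genes, which are named, and black bars are list medians, with the vertical spread only separating points. Called ligand genes lie on both sides, from -1.87 to 3.65, and only 2 of the 35 tested adaptors are called.

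For the 2 tested members with the largest rises, Itga2 and Itgb3, and for Itga6, the tested member with a negative value, the gene of most similar pattern was found by Pearson correlation of log2 CPM over the 6 libraries. For Itga2 this was Plekha1 (r = 0.998), for Itgb3 it was Wnt9a (r = 0.998), and for Itga6, which was not called, it was Hmmr (r = 0.997). Many genes came close, since 549, 375 and 249 genes had r over 0.95 with the 3 members, and the 6 points share 3 treatments, so these correlations mainly describe the treatment groups.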

How the data were processed

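RNA-seq of 6 NIH/3T3 libraries was analysed. Per the labels and the study's methods, the authors mapped single-end reads of 50 bases to mm10 with Subjunc (Subread 1.6.4) and counted them on Gencode M20 genes with featureCounts; the strand setting was not given in the sources used here. The deposited values are raw counts per gene and library, with exonic lengths. The members and gene lists were chosen with earlier results of these data known.

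Genes with at least 10 CPM in at least 4 libraries (9518) were TMM-scaled and tested with the quasi-likelihood test of edgeR 4.0.16 (limma 3.58.1, R 4.3.3) in a single fit of the 3 groups. Adjusted p are Benjamini-Hochberg values over all genes tested, and SE is the log2 fold change divided by the root of F. On simulated data, 199 to 200 of 200 genes changed 3-fold were called. The simulation gave each gene the same spread in all groups and drew genes independently. It lacked the larger difference between the TGF-β1 + DMSO libraries, so it does not show what BI6727 against DMSO could detect. RPKM used TMM scaling over all genes with counts. Of 54752 gene IDs, 54723 had a symbol. Depth limits Itga1, Itga2 and Itga11, whose counts go down to 2 per library. All 10 members were named, other subunits at 1 RPKM or more in every library or called, and called list genes up to 6 per list and comparison, and the gene of highest correlation for the members with the largest rises and falls. Alternatives were DESeq2 1.42.0 as test or scaling, filterByExpr, a minimum of 10 counts in total, fits of 2 groups, replicate blocks, no fold minimum, length offsets (lowess, span 0.3) and leaving out each library. When a library is left out, its group adds nothing to the estimate of spread. Calls gained or lost in such fits therefore also depend on which groups still have 2 libraries.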

Additional observations from a re-analysis of the deposited data

How the results depend on the processing

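Members called higher with TGF-β1 against vehicle numbered 4 under DESeq2, DESeq2 size factors, both looser filters, fits of 2 groups and length offsets. Lower calls went from 0 to 1 (Itga11) with filterByExpr and with a minimum of 10 counts in total, against vehicle in both comparisons, because more genes were tested, and to 1 (Itga6) for TGF-β1 + BI6727 without the fold minimum. Leaving out a library gave 2 to 4 members higher for TGF-β1 + DMSO and 1 to 4 for TGF-β1 + BI6727, and 0 in either direction for BI6727 against DMSO. Shares of CPM in place of RPKM gave Itga5 42.5%, 61.7% and 62.3% of the α sum and Itgb3 0.733%, 4.39% and 2.93% of the β sum in vehicle, DMSO and BI6727, since CPM does not divide by length. The order of levels changed for 4 of 30 places without TGF-β1 + BI6727 replicate 1 and for none under the other alternatives.

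With 1 library left out, the log2 difference between BI6727 and DMSO changed sign for 6 members. It ran from -0.23 to 0.39 for Itga2 (-0.23 without DMSO replicate 2, -0.17 without BI6727 replicate 2) and from -0.24 to 0.15 for Itga5 (0.15 without DMSO replicate 1, 0.00017 without BI6727 replicate 1). It ran from -0.40 to 0.23 for Itgav (0.23 without DMSO replicate 1), from -0.013 to 0.15 for Itgb1 (-0.013 without DMSO replicate 2) and from -0.070 to 0.17 for Itgb5 (-0.070 without DMSO replicate 2, -0.00051 without BI6727 replicate 1). For Itga1 it ran from -0.35 to 0.85, with -0.031 without DMSO replicate 1 and -0.35 without BI6727 replicate 1. For DMSO against vehicle, Itgb7 ran from -0.0070 (without vehicle replicate 1) to 0.15 and Itgb4 from -0.036 (without DMSO replicate 1) to 0.45.

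List genes called in the same fits, over all 4 lists, changed more. For TGF-β1 + DMSO the 8 higher became 15 and the 7 lower 12 without a fold minimum, and the lower became 4 in the fit of 2 groups. For TGF-β1 + BI6727 the 6 higher became 14 without a fold minimum and the 10 lower became 16 with a minimum of 10 counts in total. For BI6727 against DMSO, DESeq2 called 1 lower (Postn). With a library left out, the counts ran from 3 to 14 higher and 2 to 19 lower (DMSO against vehicle), 0 to 3 higher and 0 to 4 lower (BI6727 against DMSO), and 2 to 7 higher and 4 to 11 lower (BI6727 against vehicle).

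The replicate block gave 4 members higher and 0 lower in both comparisons with vehicle and 0 for BI6727 against DMSO, as without it. Deviations of same-numbered libraries correlated at -0.11 (vehicle and DMSO), -0.26 (DMSO and BI6727) and 0.047 (vehicle and BI6727), so same-numbered libraries did not deviate together. These values cannot show whether such libraries were handled as pairs, which the labels do not say. A block with the DMSO numbers crossed, added after the data were seen, gave the same 4, 0 and 0. Fits with filterByExpr and a library left out, and all alternatives for the lists, were also added then. Cells and cultures behind the replicates are not described in the labels, and counting limits Itga1 and Itga11 most.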
